A study of Glycine max with 4 samples.

Results

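Scattered start positions are bases at which nanoCAGE tags began in soybean but which lay in no tag cluster. NanoCAGE reads the capped 5′ ends of RNA, so each tag is taken to mark the base where a transcript starts. A position was counted as scattered when it fell in no span of the authors' root or shoot cluster list on the same sequence and strand. Of the 479104 positions in the table of counts per library, 330516 were scattered and 148588 lay inside a cluster. The samples were 2 root and 2 shoot libraries of Williams 82, the soybean cultivar behind the reference genome of the species. All plants were 2 weeks old and grown in white light at 300 µmol per m2 and second for 12 h a day, and shoots and roots were harvested separately; the labels name no treatment. The labels number the libraries of a tissue 1 and 2 but do not say that they came from different plants, so the p-values below measure the spread between these libraries, which may be technical.

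RNA polymerase II starts transcription at promoters, where core elements such as the TATA box and the initiator place the enzyme. Starts at a promoter can fall on a sharp peak or spread over a wider zone, and a cluster of nearby tags is the usual way to draw a promoter from such data. Bases just before and after a cluster are part of the same promoter region, bases farther downstream on its strand are usually in the transcribed gene, and tags on the other strand need a different start. Libraries of 5′ ends also hold many lone tags away from clusters, and the nearest promoter that could have made the RNA is the one upstream on the same strand.

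The count table covered sequences 1 to 12 and a part of sequence 13 of a 20-sequence assembly, and coordinates are those of the files, counted from 1. It held 1000476 and 874004 root tags and 901261 and 655935 shoot tags for replicates 1 and 2. No gene names are attached to these positions, so markers of root or shoot could not be looked up and the tissue is taken from the labels. Summed over each 5 kb stretch downstream of a cluster, scattered tags of the 2 root libraries had r = 0.699 and those of the 2 shoot libraries r = 0.678 across 3600 stretches with 20 tags or more, against -0.37 to -0.34 for root with shoot. Those r values are descriptions across stretches of the same libraries. The 20 tags were summed over all 4 libraries, so a stretch could enter through 1 tissue alone. The negative values therefore cannot be read as opposition of the tissues. The libraries of a tissue were not copies of each other, with a chi-square per degree of freedom of 1.52 in root and 1.25 in shoot.

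Scattered positions were many and each was weak. They held 125612 tags in root replicate 1, 115442 in root replicate 2, 113105 in shoot replicate 1 and 77437 in shoot replicate 2. These were 12.6%, 13.2%, 12.5% and 11.8% of the tags of each library. The 95% Wilson interval was 11.7 to 11.9 for the shallowest library. It covers counting error only, as do all intervals below, because amplified tags need not be separate molecules unless a molecular identifier was used. Both root libraries lay above both shoot libraries, though root replicate 1 and shoot replicate 1 had nearly the same share. The mean was 12.9% ± 0.46 (SD, n = 2) in root and 12.2% ± 0.53 (SD, n = 2) in shoot, a difference of 0.704 percentage points, with p = 0.333 in a two-sided exact permutation test, which is the smallest p that 2 libraries against 2 allow. In whole tissues, fewer cells of a type and less RNA per cell cannot be told apart in any of these values.

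A scattered position had 1.10 to 1.13 tags per library in which it was seen, against 8.37 to 10.2 inside clusters. Over all 4 libraries 79.3% of the scattered positions had 1 tag, 13.7% had 2 tags, 4.90% had 3 tags and 2.10% had 4 to 6 tags. This ceiling comes from the cluster lists and is not a property of the RNA: every position of 1 TPM or more lay in a listed cluster. In the pooled values a tag was worth 0.286 TPM in root and 0.329 TPM in shoot. A position with 3 root tags (0.859 TPM) or 3 shoot tags (0.981 TPM) could therefore lie outside. One with 4 root tags (1.15 TPM) or 4 shoot tags (1.31 TPM) was always in a cluster. Positions below 1 TPM also lay inside clusters. No scattered position had more than 3 tags from a tissue, and 508 had 3 from each.

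Few scattered positions recurred. Tags came from root alone at 51.9% of positions, from shoot alone at 39.9% and from both tissues at 8.25%, and 86.7% of positions had tags of 1 library. The 82287 positions inside clusters with at most 3 tags per tissue had tags of both tissues in 20.4% of cases. They had a lone tag in 56.2% of cases, against 79.3% of scattered positions. A lone tag cannot come from both tissues, so the 2 shares with both tissues do not compare positions of equal tag number. Depth set part of the number of positions per library, which ran from 70317 in shoot replicate 2 to 110778 in root replicate 1. Thinned to 77437 scattered tags each, the libraries had 71470, 71622, 70935 and 70317 scattered positions, numbers that the tags kept nearly fix, since few positions had more than 1 tag.

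Most scattered tags lay near a cluster and on its strand. Of all scattered tags, 51.5% lay downstream of the nearest cluster on the same strand and 31.2% upstream on the same strand. On the other strand, 9.09% lay downstream of the nearest cluster, 8.01% upstream and 0.151% across from the cluster itself. The 4 libraries agreed closely, with 50.6% to 52.5% of their scattered tags downstream on the same strand. The median distance of a position to the nearest cluster was 662 bp. Within 10 bp of a cluster lay 15.2% of the tags, within 50 bp 32.2%, within 150 bp 43.1% and within 5 kb 73.9%. Same-strand positions made up 98.4% of those within 10 bp of the nearest cluster, 77.8% of those 2 to 5 kb away and 49.6% of those more than 50 kb away, where the strand no longer favoured the cluster.

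The density of tags, in tags per Mb of strand per 1000000 tags of the library, separates distance from the amount of sequence at that distance. It was computed for positions with clusters within 5 kb on only 1 side and 1 strand. Distance was to the nearest of them, and a second cluster farther out on that side was not excluded. Downstream on the same strand it was 59399 to 66357 over the libraries at 1 to 10 bp from the cluster, 1288 to 1408 at 150 to 500 bp and 203 to 236 at 2 to 5 kb. Upstream on the same strand it began almost as high, at 51063 to 58981, but was 319 to 430 at 150 to 500 bp and 59.5 to 67.8 at 2 to 5 kb. Both sides of a cluster thus had a dense rim, and from 150 bp to 5 kb the downstream side was denser in all 4 libraries.

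On the opposite strand there was no such rim. Past the cluster, the opposite-strand density was 105.1 to 121 at 150 to 500 bp and 28.0 to 35.7 at 2 to 5 kb. Upstream, where divergent transcripts would start, it was 32.9 to 38.8 at 150 to 500 bp and 49.5 to 56.3 at 2 to 5 kb. The opposite-strand tags were therefore denser on the downstream side at 150 to 500 bp and denser on the upstream side at 2 to 5 kb, in all 4 libraries. Sequence farther than 20 kb from every cluster made up 55.1% of the bases between the outermost clusters and held 8.40% of the scattered tags, a density of 13.3 to 15.8. From 5 to 10 kb away from every cluster the density was 67.5 to 79.6, and from 10 to 20 kb it was 52.4 to 65.4. The opposite-strand densities on the downstream side at 2 to 5 kb and on the upstream side at 150 to 500 bp were thus above that of sequence past 20 kb and below those at 5 to 20 kb.

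**Figure D1:**
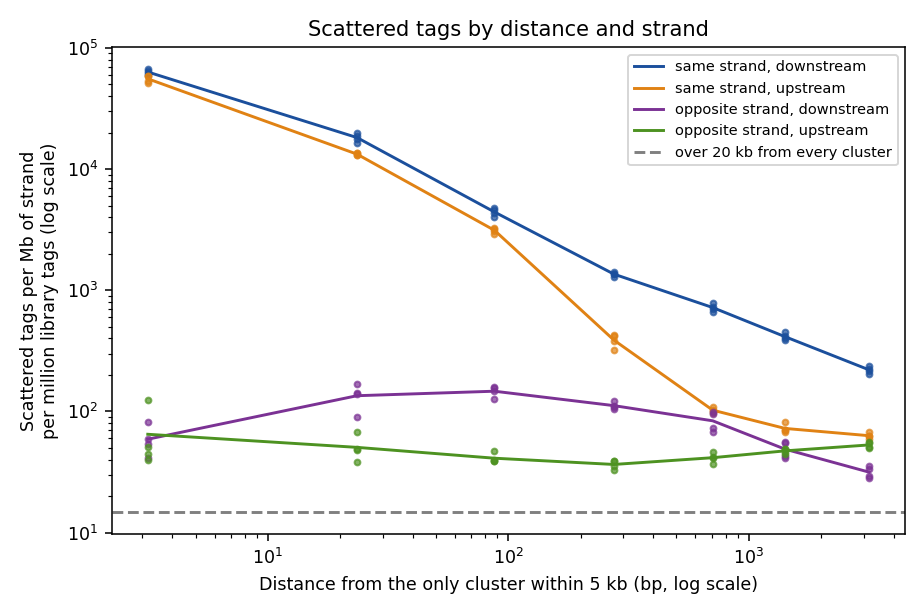
Scattered tags per Mb of strand per 1000000 library tags (log scale) against the distance from the only cluster within 5 kb (log scale), with points for the 4 libraries and lines for their mean. The same-strand lines drop from over 51063 beside the cluster, and the downstream line ends at 203 to 236 while the upstream line ends at 59.5 to 67.8; the dashed line marks sequence over 20 kb from every cluster.

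Stronger clusters had more scattered tags after them, but far less than in proportion. A stretch is defined here as the 5 kb downstream of a cluster on its strand, cut short at the next cluster of that strand. Such stretches held 218644 tags, 50.7% of all scattered tags. The median stretch held 8 tags behind clusters of 1 to 10 tags, 11 tags behind clusters of 31 to 100 tags and 21 tags behind clusters of more than 1000 tags, all 4 libraries summed. Per 100 cluster tags, stretches behind the weakest clusters held 159 to 198 tags over the libraries, and those behind the strongest held 0.683 to 0.768. The ceiling of 3 tags per position and tissue limits what a stretch can hold, and its part in this pattern was not tested.

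**Figure D2:**
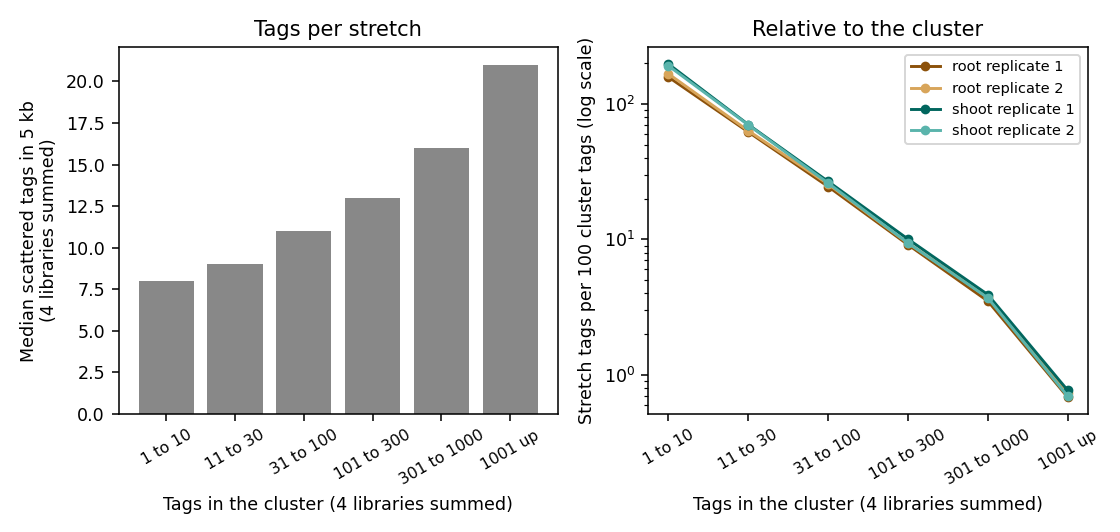
Left, median scattered tags per 5 kb stretch, summed over the 4 libraries, by the number of tags in the cluster; right, stretch tags per 100 cluster tags (log scale) in each library. The median goes from 8 to 21 tags, and the ratio goes from 159 to 198 down to 0.683 to 0.768.

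The main question was whether scattered tags come from the tissue in which the cluster upstream of them is used. Clusters were first classed with edgeR's quasi-likelihood test: of 7182 tested, 53.0% differed between the tissues at a Benjamini-Hochberg adjusted p below 0.05, 2119 (29.5%) being higher in shoot and 1684 (23.4%) higher in root. Within 5 kb downstream of the root-higher clusters lay 11291 and 10369 scattered tags of the root libraries and 3099 and 1728 of the shoot libraries. Behind the shoot-higher clusters lay 4544 and 4219 tags of the root libraries and 15719 and 11106 of the shoot libraries. In each library the tags thus sat mostly behind clusters of its own tissue, with no overlap between root and shoot libraries.

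The ratio of tags behind root-higher to tags behind shoot-higher clusters gives this as a value per library that needs no scaling. On the log2 scale it was 1.31 and 1.30 in the root libraries and -2.34 and -2.68 in the shoot libraries. Root exceeded shoot by 3.82, or 14.1-fold, with p = 0.333 in a two-sided exact permutation test, the smallest p possible. The tags inside the same clusters, which chose the classes, gave 4.96. Clusters were also classed at 2-fold or more in the libraries of 1 replicate number, with scattered tags taken from those of the other. The value was then 3.67 and 3.40 in the 2 directions. The cluster lists, the count filter and the scaling still rested on all 4 libraries, so the split was not complete.

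The tissue of the tags was tied to the cluster over kilobases downstream and over a shorter distance elsewhere. Again positions were kept that had clusters within 5 kb on only 1 side and strand, and the nearest of these gave the class. Downstream on the same strand the root-minus-shoot value was 3.86 at 1 to 10 bp and 4.01 at 150 to 500 bp. It was 3.84 at 1 to 2 kb and 2.99 at 2 to 5 kb. Upstream on the same strand it was 3.54 at 1 to 10 bp, 2.21 at 150 to 500 bp and 0.716 at 2 to 5 kb. Up to 2 kb downstream the value lay between 3.63 and 4.01, whereas upstream it was lower at each longer distance except 500 bp to 1 kb (2.66), where the shoot libraries had 15 and 10 tags beside root-higher clusters. On the opposite strand the value was 2.78 within 500 bp on the downstream side and 1.19 from 500 bp to 5 kb. On the upstream side of the opposite strand it was 2.55 within 500 bp, resting on 8 to 41 tags per library and class, and 0.741 from 500 bp to 5 kb.

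Past 5 kb the tie to the upstream cluster faded. For positions whose nearest upstream cluster was 5 to 10 kb away the value was 1.37, at 10 to 20 kb it was 0.192, at 20 to 50 kb -0.014 and at 50 to 200 kb -0.019. At these last distances the root and shoot libraries overlapped. Keeping positions more than 5 kb from any cluster of either strand gave 1.75, 0.0607, -0.011 and -0.10. Beyond 10 to 20 kb, then, the tissue of the upstream cluster no longer told root from shoot tags in these libraries.

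**Figure D3:**
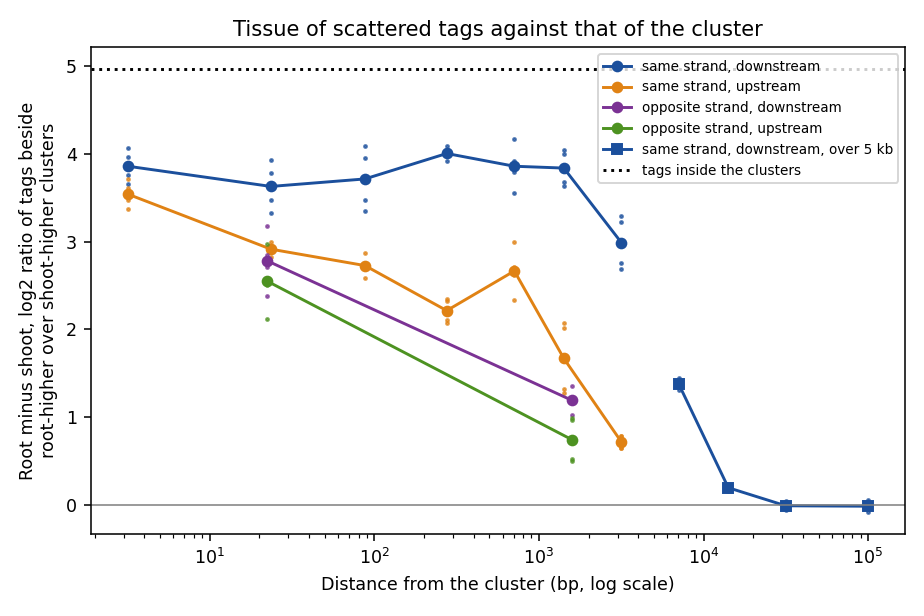
Root minus shoot mean of the per-library log2 ratio of scattered tags beside root-higher over shoot-higher clusters, against the distance from the cluster (log scale); small dots are the 4 root-shoot library pairs, circles lie beside clusters with no other cluster within 5 kb, and squares show nearest upstream clusters farther away. Downstream on the same strand the value is 3.86 beside the cluster, 2.99 at 2 to 5 kb and near 0 past 20 kb, below the 4.96 of the tags inside the clusters (dotted line).

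The size of the tissue difference was graded as well. For clusters with a fitted log2 shoot over root above 5, scattered tags downstream, each library scaled to its total of scattered tags, had a log2 shoot over root of 4.46 (4.30 to 4.62 over the 4 library pairs). For clusters from 1 to 3 it was 1.02 (0.948 to 1.09), for clusters from -1 to 1 it was -0.19 (-0.23 to -0.15), and for clusters below -5 it was -4.17 (-4.75 to -3.58). Upstream tags on the same strand went from 3.08 to -3.16 over the same classes. Opposite-strand tags had a narrower span, from 1.17 to -1.34 on the downstream side and from 1.23 to -0.89 on the upstream side. The order of the classes was the same downstream, upstream and inside the clusters, and it was broken on the opposite strand by 1 class on each side.

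**Figure D4:**
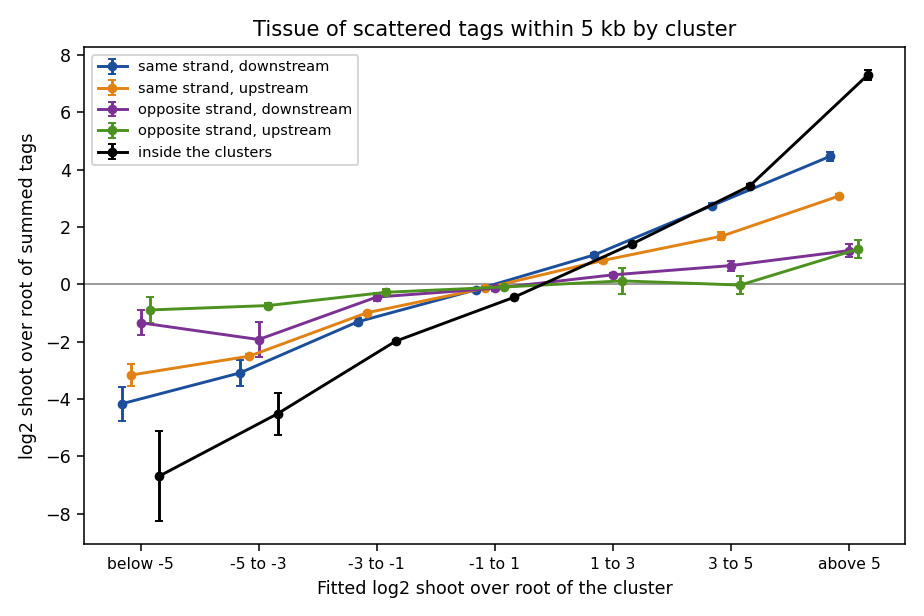
Log2 shoot over root of summed scattered tags within 5 kb, each library scaled to its total, by the fitted log2 shoot over root of the cluster; points are means over the 4 root-shoot library pairs and bars run from the lowest to the highest pair. Tags downstream on the same strand go from -4.17 to 4.46, and opposite-strand tags on the downstream side go from -1.34 to 1.17.

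A few gaps lie between a root-higher and a shoot-higher cluster on 1 strand, so that the upstream and downstream neighbours point to different tissues. There were 201 scattered positions in 22 gaps with the root-higher cluster upstream and 203 positions in 18 gaps with the reverse order, both clusters within 5 kb. Root libraries had 88 and 93 tags in the first kind of gap and 52 and 48 in the second, and shoot libraries had 54 and 49 in the first and 103 and 58 in the second. Root libraries thus had more tags in the first kind of gap and shoot libraries more in the second, although the difference was small for shoot replicate 2. The 2 kinds of gap need not be alike in length or cluster strength, so only the contrast between tissues bears on the upstream cluster. The root-minus-shoot log2 value was 1.44, with p = 0.333 in a two-sided exact permutation test.

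The value differed with the distance to either cluster. Among positions nearer to the upstream cluster it was 3.44. Nearer to the downstream cluster, root libraries had 22 and 18 tags in the first kind of gap and 23 and 23 in the second, and shoot libraries had 31 and 38 in the first and 18 and 7 in the second. There the value was -1.82, toward the downstream neighbour, but it was -0.99 when shoot replicate 2 was left out and -2.65 when shoot replicate 1 was. With both clusters more than 200 bp away it was 3.31, on 80 and 79 positions with 9 to 43 tags per library and kind of gap. Away from both rims root libraries thus had more tags in the first kind of gap and shoot libraries more in the second. Most of these positions were also nearer to the upstream cluster, so side and distance are not separated. The few positions over 200 bp from both and nearer to the downstream cluster (27 and 8) gave 2.08, from as little as 1 tag per library, which is too few to read.

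Single stretches were then compared between the tissues. Of 15283 stretches with a tag, 1512 had enough tags for the test. A stretch could pass this filter through the tissue in which it was high, so those tested do not stand for all stretches. By edgeR's quasi-likelihood test, at a Benjamini-Hochberg adjusted p below 0.05, 742 stretches differed (49.1% of those tested), 449 higher in shoot (29.7%) and 293 higher in root (19.4%). Of the called stretches, 160 had no root tag and 26 had no shoot tag in any library. In each of the 742 the 2 libraries of the higher tissue stood above both of the other. A call on 2 libraries against 2 nearly requires this, so it adds no support. The share over all tested stretches was not computed, nor was it for stretches without a tag of 1 tissue. The count depended on single libraries, with 381 calls without shoot replicate 1 and 427 without shoot replicate 2, where the lone library is assumed to vary as those of the other tissue do and 2450 and 2647 stretches were tested. DESeq2 called 449.

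The calls lined up with the clusters in front of them. Behind shoot-higher clusters stood 398 tested stretches, of which 287 were higher in shoot and 2 in root. Behind root-higher clusters stood 199, of which 154 were higher in root and 1 in shoot. Of the 367 whose cluster was tested and not called, 16 were higher in shoot and 34 in root. These compare with 29.7% and 19.4% over all tested stretches. A further 248 called stretches followed clusters too weak to be tested, with a median of 8 tags in the cluster and 33 in the stretch. For these, the nearest tested cluster farther upstream within 5 kb was looked up, a step added after the first results were seen. There 59 shoot-higher stretches had a shoot-higher cluster and 0 a root-higher one, 18 root-higher stretches had a root-higher cluster and 0 a shoot-higher one, 4 and 6 had a cluster that was not called, and the others had no tested cluster there.

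The 6 called stretches with the highest level in root were led by the one behind the cluster on sequence 13, plus strand, 1668112 to 1668443. In unscaled tags over the 4 libraries (125) this stretch also held the most of the named stretches. It had 93 and 30 tags in the root libraries and 2 and 0 in the shoot libraries, at 92 positions. Root replicate 1 stood far above root replicate 2, and both stood above shoot; the cluster itself had 244 and 66 root tags and 5 and 1 shoot tags, the same imbalance between replicates. The scaled ratio was 55.8 (95% exact interval 15.1 to 466) and the adjusted p in edgeR's test 2.77e-05. The fitted log2 shoot minus root of -5.64 was -4.64 without root replicate 1, -6.25 without root replicate 2 and -4.54 without shoot replicate 2, and without shoot replicate 1 no shoot tag is left. Ratios of named stretches are of tags scaled by the TMM-adjusted totals of the tested stretches.

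On sequence 12, plus strand, 2 root stretches followed each other. Behind the cluster at 4180135 to 4180138 lay 63 and 45 root tags and 3 and 0 shoot tags, a ratio of 32.7 (10.9 to 161; adjusted p in edgeR's test 1.33e-05). Its log2 shoot minus root of -4.93 was -3.80 without shoot replicate 2, and all 3 shoot tags came from shoot replicate 1. This stretch held more tags than its cluster, which had 34 and 15 root tags and no shoot tag. Behind the next cluster, at 4185156 to 4185162, lay 35 and 33 root tags and no shoot tags, so root was at least 20.6-fold higher against a floor of 3 counts over both shoot libraries (lower limit of the exact interval 16.3; adjusted p in edgeR's test 8.13e-06). Here the cluster was the stronger, with 480 and 461 root tags against 7 and 0 in shoot.

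The remaining 3 root stretches differed in shape. The one behind sequence 10, minus strand, 54984646 to 54984687, had 50 and 36 root tags and 9 and 3 shoot tags, 6.50-fold (3.54 to 13.1; adjusted p in edgeR's test 0.000148). Behind sequence 13, plus strand, 39839477 to 39839575, the next cluster came after 189 bp, and the gap held 47 and 26 root tags and 4 and 1 shoot tags, 13.2-fold (5.42 to 42.0; adjusted p in edgeR's test 3.66e-05). Such a short gap lies wholly within the dense rim of its clusters. Behind sequence 8, minus strand, 49819434 to 49819854, a gap of 283 bp held 30 and 34 root tags and no shoot tags, at least 19.4-fold higher in root against the same floor (lower limit 15.3; adjusted p in edgeR's test 8.90e-06). The log2 shoot minus root of -2.69 on sequence 10 was -1.92 without shoot replicate 2, and that of -3.67 on sequence 13 ran from -4.29 with shoot replicate 1 left out to -2.83 with shoot replicate 2 left out.

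Of the 6 called stretches with the highest level in shoot, 4 had no root tag. Behind sequence 10, minus strand, 53342377 to 53342478, lay 57 and 37 shoot tags, at least 34.5-fold more than in root against a floor of 3 counts over both root libraries (lower limit of the exact interval 27.5). The cluster had 769 and 621 shoot tags and 2 and 0 root tags, so the stretch held a small share of its tags. Behind sequence 1, minus strand, 54496738 to 54496832, lay 46 and 38 shoot tags, at least 30.9-fold more (lower limit 24.6). Here cluster and stretch were nearly equal, with 52 and 43 shoot tags in the cluster. The adjusted p in edgeR's test was 8.13e-06 for each of the 4.

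In the 2 others the stretch held root tags as well. Behind sequence 3, plus strand, 47487901 to 47487947, lay 14 and 20 root tags and 48 and 30 shoot tags, 2.53-fold more in shoot (1.67 to 3.90; adjusted p in edgeR's test 0.0171). This call was lost without root replicate 1 (adjusted p 0.0899) and without shoot replicate 1 (adjusted p 0.079). Behind sequence 9, minus strand, 42695292 to 42695429, lay 14 and 4 root tags and 48 and 25 shoot tags, 4.47-fold more in shoot (2.64 to 7.96; adjusted p in edgeR's test 0.00121). Its log2 shoot minus root of 2.13 was 3.25 without root replicate 1, 1.49 without root replicate 2 and 2.73 without shoot replicate 2. Both clusters also had tags of both tissues and were higher in shoot.

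The last 2 shoot stretches followed weak clusters. The cluster at sequence 3, plus strand, 38373843, is a lone position with 2 and 3 shoot tags and no root tag. Yet the stretch behind it held 43 and 28 shoot tags. Against the same floor of 3 counts over both root libraries, this was at least 26.1-fold more than in root (lower limit of the exact interval 20.7). The tags were spread over 61 positions. Their median distance from the cluster was 2987 bp, and the densest 200 bp window, with 21 of the 71 tags, began 3640 bp past the cluster and ended just before the next cluster of the strand, 3849 bp away. Behind sequence 10, plus strand, 43755192 to 43755222, lay 33 and 34 shoot tags, at least 24.6-fold more against that floor (lower limit 19.5). The cluster there had 29 and 31 shoot tags and 5 and 0 root tags.

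Other stretches rich in tags did not pass the test between tissues. Behind sequence 5, plus strand, 1888352 to 1888386, a gap of 282 bp held 27 and 38 root tags and 38 and 15 shoot tags at 67 positions (adjusted p in edgeR's test 0.76), and the cluster had no more than 10 tags per library. Behind sequence 5, plus strand, 38706436 to 38706441, lay 33 and 24 root tags and 32 and 25 shoot tags (adjusted p in edgeR's test 0.803) behind a cluster of 5 to 7 tags per library. In both cases the scattered tags together exceeded the cluster several times over. Behind sequence 10, minus strand, 38693564 to 38693572, a gap of 195 bp held 36 and 15 root tags and 37 and 21 shoot tags (adjusted p in edgeR's test 0.609). Behind sequence 7, minus strand, 45439919 to 45439961, lay 14 and 26 root tags and 30 and 33 shoot tags, 1.74-fold more in shoot (1.15 to 2.65), with the tissues apart and an adjusted p in edgeR's test of 0.147.

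Tags in 2 of these rich stretches were gathered far from the cluster. Behind sequence 5, plus strand, 28918185 to 28918222, 78 of the 111 tags lay in a 200 bp window that began 2836 bp past the cluster, with 23 and 33 root tags and 35 and 20 shoot tags in the whole stretch (adjusted p in edgeR's test 0.875). Behind sequence 9, minus strand, 1427677 to 1427736, 56 of the 114 tags lay in a window that began 2030 bp past the cluster. That cluster was higher in root, with 48 and 48 root tags against 14 and 9 in shoot, whereas the stretch had 29 and 32 root tags and 36 and 17 shoot tags. The difference between stretch and cluster did not pass the test (adjusted p in edgeR's test 0.0917).

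Whether a stretch departs from its own cluster was tested directly, with edgeR's test of the interaction between tissue and part (cluster or stretch). Of 1512 stretches 35 were called (2.31%), 30 more root-sided than their cluster (1.98%) and 5 more shoot-sided (0.331%), and 208 had an unadjusted p below 0.05. The cluster had enough tags to be tested itself for 964 of them, with 32 of the calls (3.32%), and for the other 548 the departure rests on few cluster tags. Leaving out any library left 6 to 18 calls, and stretches that were not called may still depart. The split moved with scaling: with total tags in place of TMM factors, 27.6% of the 29 calls were shoot-sided, against 14.3% here. The median log2 shoot minus root of stretches behind root-higher clusters was -2.28, against -2.40 for the clusters, with 3 of 4 called departures toward shoot. Behind shoot-higher clusters it was 2.85 against 3.95, with 23 of 24 called departures toward root. In both classes most called departures were thus toward the other tissue, but behind root-higher clusters this rests on 4 calls. The median departure there was -0.0506, against -0.396 behind shoot-higher clusters and -0.289 behind clusters that were not called. The stretch differed less than its cluster in 101 of 199 cases behind root-higher clusters and in 318 of 398 behind shoot-higher ones. Clusters were classed by their own tags, which fixes the sign of their medians.

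Of the 35 departures, 12 had a stretch whose sign was opposite to that of the cluster, and the 6 with the smallest p are given here. The clearest followed sequence 6, plus strand, 28565434 to 28565593. Its stretch had 20 and 26 root tags and 9 and 7 shoot tags, while its cluster had 1 and 0 root tags and 63 and 32 shoot tags. Cluster and stretch were thus higher in opposite tissues in every library, a departure of -7.89 ± 0.793 (SE) on the log2 scale with an adjusted p in edgeR's interaction test of 8.88e-20. It was -9.38 without root replicate 1, -7.03 without root replicate 2 and -7.16 without shoot replicate 1. The stretch alone was also higher in root (adjusted p in edgeR's test 0.0152), and the next cluster on the strand lay 184974 bp away.

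The next departures rested on stretches with no clear tissue of their own. Behind sequence 8, plus strand, 11589870 to 11589966, lay 18 and 11 root tags and 15 and 8 shoot tags after a cluster of 126 and 92 root tags and 792 and 433 shoot tags (departure -3.30 ± 0.447 SE, adjusted p in edgeR's interaction test 1.36e-10). Behind sequence 7, minus strand, 7032516 to 7032733, lay 13 and 11 root tags and 22 and 11 shoot tags after a cluster of 84 and 69 root tags and 6 and 1 shoot tags (departure 4.37 ± 0.636 SE, adjusted p in edgeR's interaction test 3.89e-09). In the sequence 8 stretch root and shoot overlapped, and in the sequence 7 stretch both shoot libraries stood above root after scaling, with neither called between the tissues (adjusted p in edgeR's test 0.757 and 0.291). The sequence 7 departure was 5.83 without shoot replicate 1.

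The other 3 departures were less steady. Behind sequence 13, minus strand, 21287184 to 21287269, lay 11 and 9 root tags and 4 and 8 shoot tags after a cluster of 135 and 102 root tags and 251 and 285 shoot tags (adjusted p in edgeR's interaction test 0.000818). Behind sequence 12, plus strand, 37781427 to 37781716, lay 4 and 4 root tags and 13 and 9 shoot tags after a cluster of 130 and 126 root tags and 43 and 39 shoot tags (adjusted p in edgeR's interaction test 0.00151). Behind sequence 2, plus strand, 38223765 to 38223818, lay 16 and 17 root tags and 13 and 6 shoot tags after a cluster of 134 and 102 root tags and 223 and 136 shoot tags (adjusted p in edgeR's interaction test 0.00162). These calls were lost under 6 of 10, 5 of 10 and 6 of 11 alternatives, each of them when any library was left out, with adjusted p up to 0.493, 0.192 and 0.744.

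**Figure D5:**
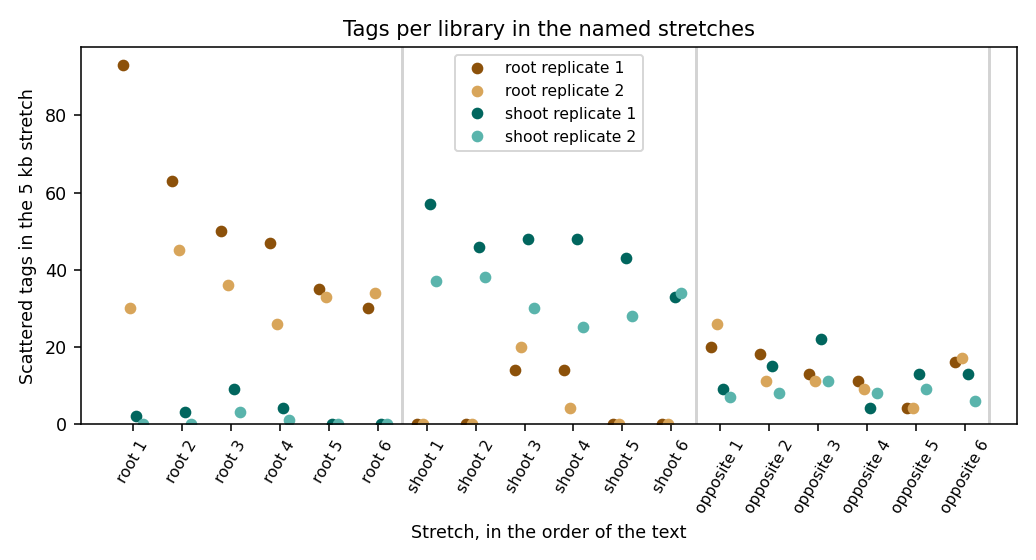
Scattered tags per library in the 6 called stretches highest in root, the 6 highest in shoot and the 6 with a sign opposite to their cluster, each in the order of the text, except that the later sequence 12 stretch is root 5 and those on sequences 10 and 13 are root 3 and root 4. Root and shoot libraries are apart in the first 12, as the rule that chose them required, from 93 and 30 against 2 and 0 in the first stretch, and overlap in some of the last 6.

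Far from every cluster the tags were thin but not evenly spread. More than 10 kb from any cluster of either strand lay 60159 positions with 73213 tags, 17.5%, 17.5%, 16.4% and 16.2% of the scattered tags of the root and shoot libraries. Of these positions 84.6% had 1 tag and 5.59% had tags of both tissues. In bins of 1 kb, 1423 bins with 10 tags or more held 29.4% of these tags, while 14219 bins with a lone tag held 19.4%. The 4 richest bins had tags of every library. On sequence 9, minus strand, 18245001 to 18246000, there were 22, 22, 19 and 19 tags at 57 positions, and none on the plus strand.

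The other 3 bins were alike. Sequence 8, plus strand, 35656001 to 35657000, had 21 and 17 root tags and 14 and 10 shoot tags, and no tag on the other strand. Sequence 11, minus strand, 2631001 to 2632000, had 13 and 17 root tags and 19 and 10 shoot tags, and 3 tags on the other strand. Sequence 2, minus strand, 7237001 to 7238000, had 13 and 12 root tags and 15 and 13 shoot tags, and 2 on the other strand. Nearly all tags of the 4 bins thus sat on 1 strand, with at most 5 tags at a position.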

How the data were processed

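The members and lists were chosen with earlier results of these data known. Counts were deposited for each position, strand and library, according to the file headers; 1 broken last line was dropped. TPM were deposited by the authors per tissue on pooled replicates, and their cluster lists give spans per tissue, with other columns such as a score not used here. How tags were mapped, also those with several matches, and how clusters were built is not given in the sources used here. Tags of near-identical gene copies, which are frequent in soybean, are uncertain. Each library used 1 µg of total RNA, per the labels' protocols. Overlapping or touching spans of the 19249 root and 17081 shoot clusters were joined into 23343. Tags were summed in Python 3.11.15 and tested with edgeR 4.0.16 (quasi-likelihood, TMM, filterByExpr, Benjamini-Hochberg at 0.05) in R 4.3.3, with DESeq2 1.42.0 as an alternative, after tests on simulated data. Replicate numbers were not used as pairs, because the labels do not say that they pair libraries. Same-numbered libraries did not deviate together (r = 0.0129 for root 1 with shoot 1). With 2 libraries per tissue and sparse counts, that value cannot exclude pairing. Named stretches were first the 8 with most scattered tags, summed after each library was scaled to its total of scattered tags. Added to these were the 6 per tissue with the highest mean CPM among called stretches whose libraries did not overlap. The 6 departures with the smallest p and a sign opposite to the cluster were also named. Named bins were the 4 richest over 10 kb from any cluster. Alternatives were other scalings, no filter, a replicate block, other stretch lengths and margins, and leaving out each library.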

Additional observations from a re-analysis of the deposited data

Results flagged for a closer look

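Sequences and positions that the count table does not cover had scattered signal as well. In the pooled TPM, 14.3% of the root signal and 13.2% of the shoot signal at these positions lay outside clusters, against 12.8% and 12.5% in the covered part. These positions numbered 232584, of which 161805 (69.6%) were scattered. The pooled values have no replicates, so the difference was not tested. It was singled out because no comparison in the report uses these positions.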

How the results depend on the processing

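No count, share or named stretch that was recomputed changed direction. Among the called stretches as a whole, 2 changed sign over the whole gap, as did 1 departure there and 3 over 2 kb. The share of all tags that was scattered, 12.5%, was 8.53% when only positions more than 50 bp outside clusters counted, 6.95% at more than 200 bp and 4.92% for positions with 2 tags or more. The 742 called stretches became 2274 with no count filter, 449 with DESeq2, 1368 over the whole gap, 249 beyond 200 bp, 560 over 2 kb, and 381 to 796 when a library was left out. The 35 departures became 53 with no count filter, 12 with DESeq2, 18 over 2 kb, 676 over the whole gap, 5 beyond 200 bp, and 6 to 18 when a library was left out. The cause of these shifts was not tested, though fewer tags or stretches enter at 2 kb and beyond 200 bp. With the replicate number as a block, 665 stretches and 21 departures were called, of which 659 and 21 were among the 742 and 35; the numbers are not known to pair libraries. Scaling moved the median log2 of all tested stretches from 0.08 to -0.11 (total tags) or 0.17 (RLE), and the shoot share of called stretches from 60.5% to 55.1% or 63.5%. The root-minus-shoot value behind clusters (3.82) was 3.40 to 4.01 under the other alternatives but 2.06 with no limit on distance and 6.92 behind clusters over 8-fold different; between discordant flanks (1.44) it was 0.615 within 2 kb and 0.963 with classes from replicate 1, and clusters over 8-fold different gave no value. Low depth limits all single stretches: 1512 of the 15283 with a tag were tested, and those not called may differ.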

Other observations

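Scattered positions were often close together: the median gap between neighbours on a strand was 26 bp, and 36.1% of gaps were 10 bp or less. Patches of 10 or more scattered positions with gaps of up to 25 bp and more than 200 bp from any cluster of their strand, a definition chosen after the data were seen, numbered 923. They held 17772 tags, 4.12% of the scattered tags, with a median span of 80 bp. All 4 libraries had tags in 680 of them (73.7%), 48 had no root tag and 36 had no shoot tag. The libraries placed 4.0% to 4.31% of their scattered tags in patches. Within 5 kb downstream of a same-strand cluster lay 485 patches, and 219 lay more than 10 kb from every cluster. The patch with the most tags spanned sequence 5, plus strand, 28921033 to 28921283, with 19 and 25 root tags and 31 and 18 shoot tags at 58 positions. It began 2811 bp past the cluster at 28918185 to 28918222 and takes in the dense window already described behind that cluster. No base of the patch had more than 5 tags, and none reached 1 TPM, while 4840 listed clusters held 10 tags or fewer over the 4 libraries.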
